A study of Mus musculus with 34 samples.

Results

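The genes of the oxidative phosphorylation machinery were followed in mouse thoracic spinal cord after contusion injury. They were taken by symbol from the array's gene annotation: every gene beginning with Nduf, Cox4i, Cox5, Cox6, Cox7, Cox8, Uqcr or Atp5, plus Sdha, Sdhb, Sdhc and Sdhd, which gave 90 of the 18193 genes named by a single-gene probe set. A gene with several probe sets was represented by the one with the highest mean over all arrays. The 90 genes comprised 6 core and 28 accessory subunits of complex I, 8 complex I assembly factors, the 4 subunits of complex II, 8 genes of complex III, 11 of complex IV expressed generally, 8 tissue or condition specific isoforms of complex IV, and 17 of complex V. No measured value entered the choice of genes, apart from the mean that picked a gene's probe set.

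Oxidative phosphorylation takes place in the inner mitochondrial membrane. Complexes I and II pass electrons from NADH and succinate to ubiquinone, complex III passes them on to cytochrome c, complex IV hands them to oxygen, and complex V, the ATP synthase, uses the proton gradient built by complexes I, III and IV to make ATP. Nearly all subunits are encoded in the nucleus, a small set in mitochondrial DNA, and neurons of brain and spinal cord draw most of their ATP from this pathway.

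Mice carried a knockout of trkB.T1 (KO), the truncated form of the neurotrophin receptor TrkB that lacks the kinase domain, or were wild type for it (WT). All were on C57BL/6J, backcrossed for more than 20 generations, and 8 to 12 weeks old. Moderate contusion of the thoracic cord was compared with sham, and KO groups were sham (4 arrays), day 1 (4), day 3 (5) and day 7 (4) by time since injury. The WT groups were sham (4), day 1 (5), day 3 (4) and day 7 (4). The arrays were labelled biological replicates, 34 in all. The control arrays are called sham in titles and sources while their codes read Nav, so whether these animals were operated on is not settled by the labels.

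Values are GCRMA log2 signals, on which a difference of 1 is a doubling. Expression called changed had an adjusted p under 0.05 in limma, with Benjamini-Hochberg adjustment over all 24573 probe sets that reached log2 4 in at least 4 arrays. Of the 90 genes, 85 passed this filter. The other 5, Ndufb4, Cox4i2, Cox7b2, Cox8c and Ndufa4l2, stayed at the floor of the scale, with no array above 2.81.

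Several arrays need care. A probe set for Ntrk2, the trkB gene, was at 3.12 to 4.94 in 16 KO arrays and at 10.01 to 10.85 in the WT arrays, but at 9.46 in the library labelled sham KO replicate 2. Among the day 1 WT arrays, replicate 1 and replicate 2 are day 7 and sham by other label fields, and here their titles decided. On microglia and macrophage markers these 2 arrays averaged 9.73 and 9.66 log2. The other day 1 WT arrays were at 9.25 to 9.78, sham WT at 7.05 to 7.15 and day 7 WT at 11.65 to 12.06. Day 7 WT replicate 4 stood apart in the 3' minus 5' difference of the Gapdh controls, at 0.11, with the other 3 arrays of its group at 0.46 to 0.57. Markers of spinal cord cells were strongly present: in sham cords the mean log2 signal was 12.35 to 12.50 in KO and 12.37 to 12.45 in WT for neurons, and 13.08 to 13.21 in KO and 13.05 to 13.32 in WT for oligodendrocytes and myelin. Skeletal muscle markers varied widely between arrays of one group, as given below with the muscle isoforms.

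Promoter sequence was available for 74 of the 90 genes, as RefSeq gene starts on GRCm38.p6. The 250 bases before the start were searched on both strands for 4 short motifs tied to nuclear genes of mitochondria and for the TATA box. The NRF1 core GCGCANGCG, bound by nuclear respiratory factor NRF1, was found in 13 genes (17.6%) and in 5.86% of all 27025 genes with such sequence. The ETS motif CCGGAAGT, read by GABPA, was found in 3 (4.05%, against 3.23% of all genes), the ERRA motif TCAAGGTCA in 1 (1.35%, against 0.422%), the YY1 core AAGATGGCG in 1 (1.35%, against 0.71%), and the TATA box letters TATAAA in 7 (9.46%, against 14.3%). The 13 genes with the NRF1 core were Ndufa5, Ndufa8, Ndufaf4, Ndufb4, Ndufs5, Sdha, Sdhd, Cox6a1, Atp5c1, Atp5g2, Atp5h, Atp5k and Atp5l. A match is a description of these letters and not of a bound factor.

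Shown here are the 250 bases before the start of the 3 genes for ATP synthase subunit c, whose signals moved in opposite directions after injury, of Ndufaf4, called in both directions, and of Ndufs5, lower throughout. Letters run 5' to 3' on the gene's strand, and capitals mark a match to the NRF1 core (Atp5g2, Ndufaf4, Ndufs5) or to the ERRA motif on the other strand (Atp5g3). The NRF1 match in Atp5g2 and Ndufaf4 reads as the same letters on both strands, so it counts on each, and Atp5g1 had no match in this window.
Atp5g1 (chr11:96075632-96075881, minus strand): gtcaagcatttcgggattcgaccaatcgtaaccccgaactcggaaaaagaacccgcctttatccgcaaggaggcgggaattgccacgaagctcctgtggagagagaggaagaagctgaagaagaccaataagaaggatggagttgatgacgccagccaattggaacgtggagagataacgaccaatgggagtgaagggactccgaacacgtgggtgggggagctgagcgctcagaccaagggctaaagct
Atp5g2 (chr15:102671048-102671297, minus strand): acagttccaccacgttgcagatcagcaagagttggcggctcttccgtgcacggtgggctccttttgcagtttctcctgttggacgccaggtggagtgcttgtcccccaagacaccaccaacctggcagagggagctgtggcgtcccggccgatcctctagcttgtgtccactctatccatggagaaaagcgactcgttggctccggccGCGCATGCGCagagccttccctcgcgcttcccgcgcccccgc
Atp5g3 (chr2:73911327-73911576, minus strand): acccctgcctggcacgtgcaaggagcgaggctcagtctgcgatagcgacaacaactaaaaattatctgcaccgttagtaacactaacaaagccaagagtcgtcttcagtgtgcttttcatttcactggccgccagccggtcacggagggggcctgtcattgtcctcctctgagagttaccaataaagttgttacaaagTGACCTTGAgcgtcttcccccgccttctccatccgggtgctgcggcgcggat
Ndufaf4 (chr4:24897833-24898082, plus strand): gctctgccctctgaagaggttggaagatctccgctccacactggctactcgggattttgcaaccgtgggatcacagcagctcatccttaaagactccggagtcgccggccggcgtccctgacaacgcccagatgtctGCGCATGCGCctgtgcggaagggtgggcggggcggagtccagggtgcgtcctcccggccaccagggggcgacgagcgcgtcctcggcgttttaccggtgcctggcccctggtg
Ndufs5 (chr4:123718187-123718436, minus strand): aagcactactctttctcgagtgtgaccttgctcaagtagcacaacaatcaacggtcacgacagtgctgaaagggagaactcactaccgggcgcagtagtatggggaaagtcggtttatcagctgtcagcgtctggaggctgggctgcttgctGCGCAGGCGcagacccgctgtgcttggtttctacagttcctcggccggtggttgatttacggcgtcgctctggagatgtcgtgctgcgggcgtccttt

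Injury lowered most of the oxidative phosphorylation genes in both genotypes, by modest amounts and in every complex. Relative to sham, in KO cords 49 (day 1), 65 (day 3) and 74 (day 7) of the 85 genes were lower, while 2, 3 and 1 were higher. In WT cords 64, 63 and 69 were lower at these times and 2, 1 and 2 higher. The median difference was -0.19, -0.34 and -0.36 log2 over these times in KO, and -0.24, -0.32 and -0.31 in WT, while the median of all probe sets tested lay between -0.08 and -0.04 in these comparisons. Expressed as a change in signal, the 81 genes outside the tissue isoforms had a median of -12.0%, -20.8% and -22.0% in KO at the 3 times and of -15.0%, -19.9% and -19.9% in WT.

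For all probe sets, the share called lower in KO was 23.7% (day 1), 36.7% (day 3) and 27.4% (day 7), and the share called higher 20.9%, 28.2% and 19.8%. In WT these shares were 28.9%, 35.7% and 31.7% lower and 24%, 26.1% and 21.8% higher. Counted by arrays, every injured KO array lay below every sham KO array for 47, 59 and 75 of the 85 genes at day 1, day 3 and day 7, against 27.2%, 31.2% and 32.7% of all probe sets. Every injured WT array lay below every sham WT array for 60, 62 and 69 genes, against 25.7%, 30.8% and 30.7% of all probe sets. Leaving out the library labelled sham KO replicate 2, the KO counts called in either direction were 44, 65 and 71. The WT count at day 1 was 58, all lower, without the 2 arrays of conflicting labels, but 19 when these were grouped by their source and time fields, which puts arrays titled day 1 among day 7 and sham. On the microglia and macrophage markers given above, both arrays lay among the other day 1 WT arrays, not among sham or day 7.

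**Figure D1:**
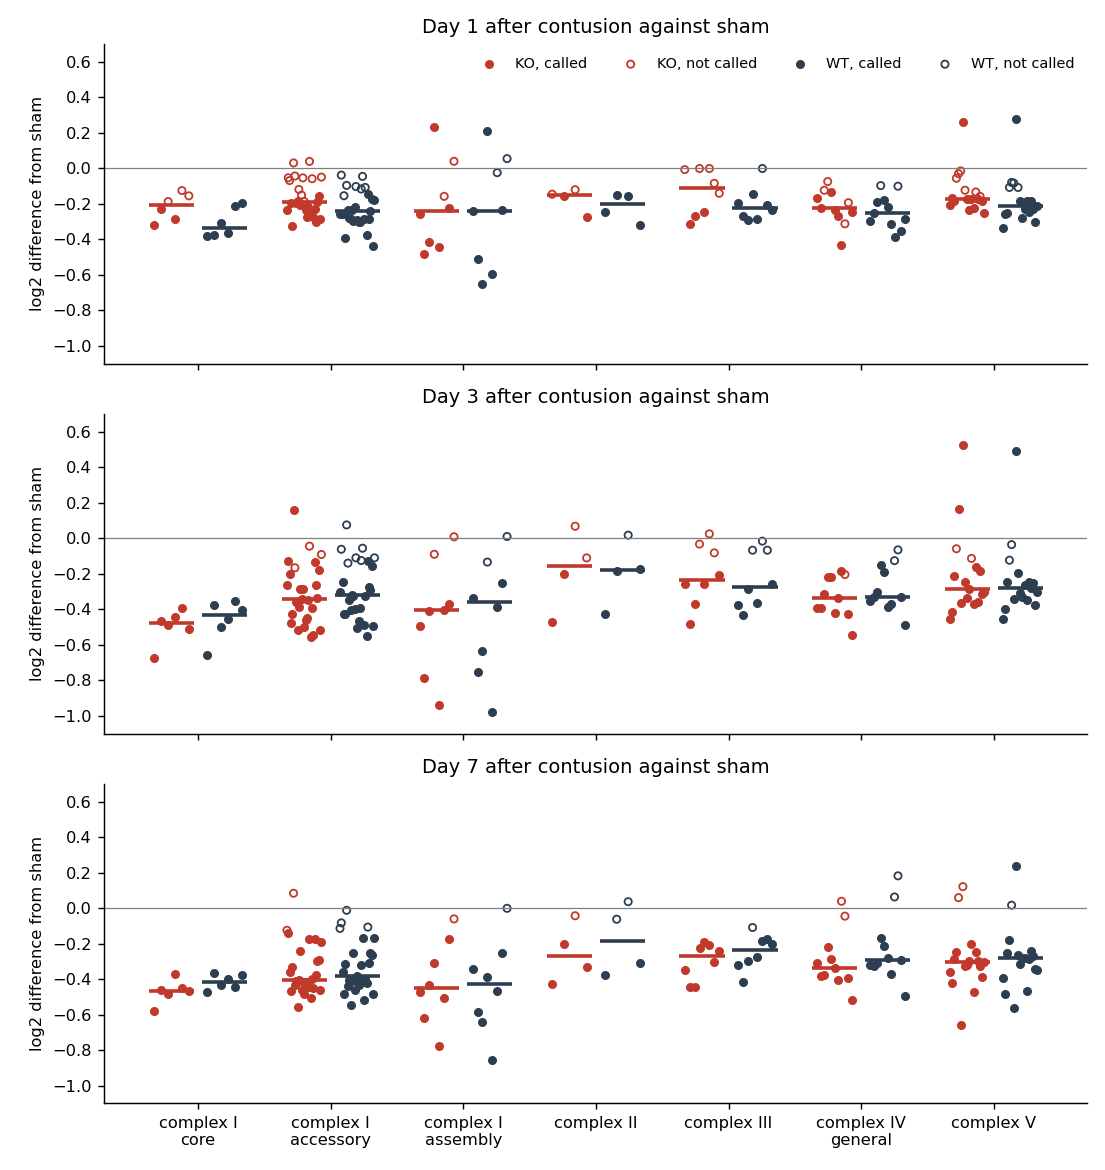
Difference from sham (log2) of each tested gene by complex at day 1, day 3 and day 7, with KO to the left of WT; the 4 tissue isoforms of complex IV are left out. Filled points passed the adjusted p threshold and bars are medians: nearly all points lie below 0, with Atp5g2 of complex V the highest at day 3, at 0.53 in KO and 0.49 in WT.

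In all 6 comparisons with sham 38 of the 85 genes were called lower, 44.7% of them, while 11.4% of all probe sets were. That count was 30 when the library labelled sham KO replicate 2 was left out, and 35 without the 2 WT arrays of conflicting labels. At least once 79 genes were lower and 5 were higher, namely Ndufa7, Ndufaf4, Cox6b2, Atp5e and Atp5g2. Ndufaf8, Cox7c and Cox6a2 were called in no comparison with sham when all arrays were used, although Cox7c at day 1 in KO averaged -0.31 (adjusted p = 0.0750) and passed without sham KO replicate 4 or day 1 KO replicate 2. Changes past 1.5-fold were few on the probe sets used. They numbered 3, 3 and 5 genes in KO at day 1, day 3 and day 7, and 3, 4 and 3 in WT. All were among Ndufs1, Ndufaf2, Ndufaf3, Ndufaf5, Atp5g1, Cox6b2, Cox7a1 and Cox8b. These are bright genes: the median mean signal was 12.25, against 7.37 over all probe sets tested, and 23 of them averaged above 13.

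Cell markers moved at the same times. All 14 neuron markers tested were lower in KO at day 3 and 12 at day 7, and in WT all 14 at both times. Their mean log2 signal in KO spanned 12.35 to 12.50 (sham), 11.87 to 12.20 (day 1), 10.75 to 11.82 (day 3) and 11.78 to 11.83 (day 7), and in WT 12.37 to 12.45, 11.72 to 12.13, 11.29 to 11.78 and 11.68 to 11.80. From day 3 to day 7, 6 of 14 neuron markers rose in KO and 0 in WT, against 16.2% and 8.64% of all probe sets. Day 3 KO replicates 2 and 5, both at a marker mean of 11.82, already lay in the day 7 range. Replicates 3 and 4 were the lowest, at 10.75 and 10.93. The difference between genotypes in this step was not tested for these markers. Of 10 oligodendrocyte and myelin markers, 9 fell at day 3 and 5 at day 7 in both genotypes. Microglia and macrophage markers were higher, 13 of 13 at day 3 and day 7 in both genotypes, with a mean of 6.49 to 7.07 in sham KO and 11.66 to 11.81 at day 7, and in WT 7.05 to 7.15 and 11.65 to 12.06. In bulk tissue fewer cells of a type and less RNA per cell cannot be told apart, and the part of these shifts in the results on oxidative phosphorylation genes was not tested. The 3' minus 5' difference of the actin controls averaged 2.08, 1.77, 1.495 and 1.94 over the KO groups in order of time. Over the WT groups it averaged 1.97, 1.72, 1.49 and 1.85. That of the Gapdh controls moved the other way, from 0.10 in sham KO to 0.27, 0.28 and 0.44 after injury. In WT it went from 0.07 in sham to 0.29, 0.21 and 0.42. The part of these control differences in the results was not tested either.

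The 6 core subunits of complex I lie in its matrix arm and include those that carry its flavin and iron-sulphur clusters. All 6 were lower at day 3 and day 7 in both genotypes, with medians of -0.48 and -0.47 log2 in KO and -0.43 and -0.42 in WT. At day 1, 3 of 6 passed the test in KO and 6 of 6 in WT. Other tested probe sets averaged -0.86 log2 for Ndufs4 and -0.84 for Ndufa10 over the 6 comparisons with sham. On the probe sets used, Ndufs1, the largest iron-sulphur subunit, had the most negative mean difference among all complex I subunits. In KO cords its signal was 11.67, 11.78, 11.62 and 11.75 in sham, 11.32, 11.47, 11.46 and 11.29 at day 1, 11.05, 11.12, 11.05, 10.75 and 11.19 at day 3, and 11.11, 11.12, 11.11 and 11.18 at day 7. In WT cords it was 11.76, 11.67, 11.73 and 11.76 in sham, 11.37, 11.21, 11.43, 11.18 and 11.57 at day 1, 11.12, 10.88, 11.11 and 11.18 at day 3, and 11.28, 11.36, 11.19 and 11.21 at day 7. No injured array reached any sham array of its genotype. The difference at day 3 was -0.67 ± 0.080 in KO and -0.66 ± 0.085 in WT (log2 ± SE, limma adjusted p = 3.47e-08 and 1.95e-07).

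Of the 27 accessory subunits tested, 16, 23 and 25 were lower in KO at day 1, day 3 and day 7, and 20, 20 and 23 in WT. Ndufs5, an intermembrane-space subunit, was lower in all 6 comparisons, at -0.29, -0.52 and -0.46 in KO and -0.44, -0.49 and -0.49 in WT. Ndufa12, among the brightest at a mean of 13.67, did not pass at day 1 in KO (-0.12, adjusted p = 0.0542) and was lower elsewhere, at -0.39 and -0.40 in KO at day 3 and day 7. Its probe set carries the _x_at suffix, which marks possible cross-hybridisation. On the probe set without such a suffix its WT day 1 difference was 0.12 (adjusted p = 0.615) and not -0.23. Small responses were seen too: Ndufa2, Ndufb7 and Ndufv3 differed from sham by no more than 0.19 log2 at any time. Ndufa7 was called higher, by 0.16 log2, in KO at day 3 alone (adjusted p = 0.0473), a call that was lost in 6 of 9 fits that left out 1 array, one of them the library labelled sham KO replicate 2 (adjusted p = 0.0675), with a highest adjusted p of 0.138. Its 5 probe sets gave calls in opposite directions in 1 comparison.

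Complex I assembly factors, which build the complex but are no part of it, held the largest falls outside the tissue isoforms on the probe sets used. This ranking depends on that choice. Other tested probe sets averaged -0.86 log2 for Ndufs4, -0.84 for Ndufa10, -0.76 for Uqcr10 and -1.09 for Atp5g1 over the 6 comparisons. The assembly factors were also the dimmest class apart from the tissue isoforms, with class means per array of 8.73 to 9.35. Ndufaf5, the enzyme that hydroxylates an arginine of Ndufs7 during assembly, had 9.47, 9.46, 9.51 and 9.53 in sham KO, 8.75, 9.12, 9.37 and 8.95 at day 1, 8.57, 8.74, 8.27, 8.39 and 8.80 at day 3, and 8.56, 8.74, 8.75 and 8.80 at day 7. Corresponding WT signals were 9.49, 9.39, 9.56 and 9.69 in sham, 8.87, 8.92, 9.14, 8.79 and 8.95 at day 1, 8.49, 8.23, 8.66 and 8.82 at day 3, and 8.72, 8.90, 8.57 and 8.504 at day 7. Injured and sham arrays did not overlap at any time, and the day 3 arrays held the lowest values. At day 3 the signal fell by 47.8% in KO and decreased by 49.2% in WT (log2 -0.94 ± 0.12 and -0.98 ± 0.13, limma adjusted p = 1.11e-07 and 2.20e-07).

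Ndufaf2, an assembly chaperone of the complex, followed the same course at -0.48, -0.79 and -0.62 in KO and -0.51, -0.76 and -0.58 in WT. For Ndufaf3, which assembles early modules of the complex together with Ndufaf4, the falls were -0.41, -0.41 and -0.43 in KO and -0.65, -0.64 and -0.64 in WT. Its partner Ndufaf4 did otherwise on the probe set used. The other tested probe set of Ndufaf4 averaged -0.43 log2 over the 6 comparisons with sham, against -0.08 for the one used, whose values follow. Ndufaf4 had 9.75, 9.96, 9.74 and 9.84 in sham KO, 10.04, 9.98, 10.07 and 10.13 at day 1, 9.58, 9.64, 10.09, 9.69 and 9.67 at day 3, and 9.47, 9.53, 9.53 and 9.55 at day 7. In WT it had 9.94, 9.98, 9.87 and 9.76 in sham, 10.19, 10.04, 10.14, 10.11 and 10.02 at day 1, 9.72, 9.94, 9.64 and 9.72 at day 3, and 9.499, 9.66, 9.57 and 9.27 at day 7. All day 1 arrays stood above all sham arrays of their genotype, and all day 7 arrays stood below them. It rose by 0.23 ± 0.090 in KO and 0.21 ± 0.086 in WT at day 1 (adjusted p = 0.0364 and 0.0384) and fell by 0.31 and 0.39 at day 7 (adjusted p = 0.00619 and 0.000700). The day 1 calls were weak: 6 of 8 fits that left out 1 KO array lost the call, with adjusted p up to 0.0936, and 5 of 9 that left out 1 WT array, up to 0.134. Without day 3 KO replicate 3 Ndufaf4 was also called lower at day 3 in KO (adjusted p = 0.0379). Ndufaf8 differed from sham by at most 0.06 log2 at any time.

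**Figure D2:**
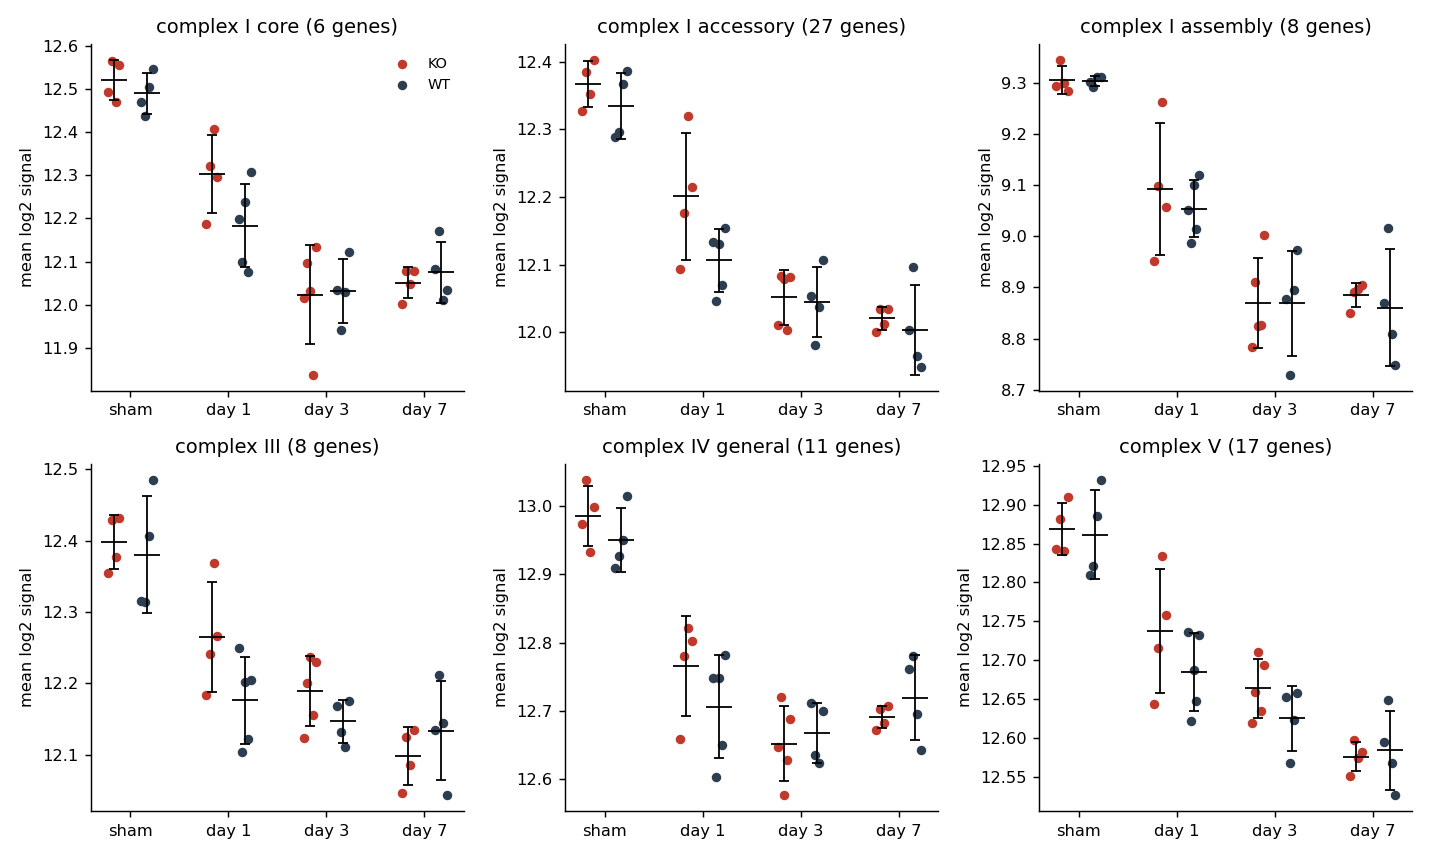
Mean log2 signal of each class per array at sham, day 1, day 3 and day 7, KO left of WT, with group mean and SD (4 or 5 arrays). In every class shown the day 3 and day 7 arrays lie below all sham arrays, and the complex I assembly factors lie lowest on the scale, at 8.73 to 9.35.

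In complex II, succinate dehydrogenase, Sdha, Sdhb and Sdhd were each lower in 5 of 6 comparisons with sham and Sdhc in 1. Sdha, the flavoprotein that oxidises succinate, had 12.03, 12.11, 11.94 and 11.99 in sham KO, 11.77, 11.94, 11.91 and 11.87 at day 1, 11.62, 11.67, 11.45, 11.37 and 11.61 at day 3, and 11.62, 11.60, 11.58 and 11.56 at day 7. In WT it had 12.05, 12.05, 12.04 and 12.03 in sham, 11.84, 11.70, 11.85, 11.65 and 11.95 at day 1, 11.67, 11.47, 11.60 and 11.71 at day 3, and 11.64, 11.74, 11.59 and 11.68 at day 7. At day 1 in KO the highest injured array equalled the lowest sham array, and this was the one comparison in which the gene was not called (-0.15, adjusted p = 0.0862). Its day 3 difference was -0.47 ± 0.066 in KO and -0.43 ± 0.069 in WT.

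Sdhb, the iron-sulphur subunit, moved less, between -0.20 and -0.06, and was called lower in all comparisons except WT at day 7. Its day 1 calls were lost in 3 of 8 KO and 4 of 9 WT fits that left out 1 array, among them the library labelled sham KO replicate 2 (adjusted p = 0.0776). The membrane anchor Sdhc was called only at day 1 in WT, at -0.16 (adjusted p = 0.0110), where it averaged -0.12 in KO without passing (adjusted p = 0.0683), and the WT call was lost without sham WT replicate 4 (adjusted p = 0.0652). From day 1 to day 3 Sdhc rose again in both genotypes, by 0.19 in KO and 0.17 in WT (adjusted p = 0.00352 and 0.0120). Its partner Sdhd was lower by 0.27 and 0.33 in KO at day 1 and day 7, and by 0.32, 0.18 and 0.31 in WT at the 3 times. Its WT day 3 call was lost in 4 of 8 fits that left out 1 array, and a KO day 3 call was gained without replicate 3 (adjusted p = 0.0338).

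Of the 8 complex III genes, 3, 5 and 8 were lower in KO at day 1, day 3 and day 7, and 7, 5 and 7 in WT. Uqcrc2, a core subunit, was lower throughout, at -0.32, -0.48 and -0.44 in KO and -0.27, -0.43 and -0.41 in WT. Uqcrfs1, the Rieske iron-sulphur protein, was also lower in all 6 comparisons, between -0.44 and -0.27. The small ubiquinone-binding subunits Uqcrb and Uqcrq differed from sham by no more than 0.03 in KO at day 1 and day 3 and were lower at day 7, by 0.22 and 0.21 (adjusted p = 0.00108 and 0.0278). In WT, Uqcrb was at -0.14, -0.07 and -0.11 and called lower at day 1 alone (adjusted p = 0.0192), a call lost in 3 of 9 fits that left out 1 array. Uqcrq was lower in WT at day 7 alone, by 0.18, and its calls were lost in 5 of 8 fits that left out 1 array in each genotype.

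The general subunits of complex IV, cytochrome c oxidase, were lower for 7, 10 and 9 of 11 genes in KO at day 1, day 3 and day 7 and for 9 at each time in WT. Cox6a1, the brightest of all members at a mean of 14.97, fell by 0.22 at day 3 and day 7 in KO and by 0.15 and 0.17 in WT, with no call at day 1. Cox4i1, the regulatory subunit found in most tissues, was at -0.17, -0.39 and -0.31 in KO and -0.29, -0.35 and -0.32 in WT. Ndufa4, now assigned to complex IV, had the largest falls of the class at day 3 and day 7, at -0.55 and -0.52 in KO and -0.49 at both times in WT. Cox7a2, Cox6b1 and Cox8a were lower in every comparison apart from Cox8a at day 1 in KO (-0.19, adjusted p = 0.138). The KO day 1 calls of Cox6b1 and Cox4i1 were lost in 4 and 3 of 8 fits that left out 1 array, Cox6b1 without the library labelled sham KO replicate 2 among them (adjusted p = 0.157), and the WT day 7 call of Cox8a in 3 of 8.

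Cox7a2l, a factor that joins complexes III and IV into supercomplexes, took the opposite course in time. Its signal was 11.62, 11.52, 11.40 and 11.55 in sham KO, 10.99, 11.07, 11.12 and 11.18 at day 1, 11.37, 11.43, 11.18, 11.31 and 11.39 at day 3, and 11.61, 11.58, 11.55 and 11.50 at day 7. WT arrays gave 11.45, 11.41, 11.48 and 11.57 in sham, 11.15, 11.05, 11.14, 10.998 and 11.11 at day 1, 11.34, 11.47, 11.28 and 11.32 at day 3, and 11.53, 11.54, 11.54 and 11.54 at day 7. Day 1 arrays were all below sham, and day 7 arrays lay within the sham range. It was lower by 0.43 ± 0.061 in KO and 0.39 ± 0.057 in WT at day 1 (limma adjusted p = 1.49e-06 and 2.74e-06), then rose from day 1 to day 3 and again to day 7 in both genotypes (0.25 and 0.22 in KO, 0.26 and 0.19 in WT). At day 7 the difference from sham was 0.04 ± 0.061 in KO and 0.06 ± 0.061 in WT, neither called.

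Complex V genes were lower for 10, 13 and 15 of 17 in KO at day 1, day 3 and day 7 and for 12, 14 and 15 in WT. The catalytic subunits moved closely together: Atp5a1 (alpha) was at -0.21, -0.46 and -0.36 in KO and -0.34, -0.46 and -0.40 in WT, and Atp5b (beta) at -0.17, -0.41 and -0.42 in KO and -0.26, -0.40 and -0.48 in WT. Atp5h, a subunit of the peripheral stalk and the brightest of the complex, was lower in all 6, between -0.34 and -0.17, with its KO day 1 call lost without the library labelled sham KO replicate 2 (adjusted p = 0.0526) or day 1 KO replicate 1. Atp5e, the epsilon subunit of the central stalk, was called higher in KO at day 3 alone, by 0.17 (adjusted p = 0.0332). Its day 3 KO arrays stood at 12.32, 12.30, 12.67, 12.43 and 12.38, the highest being replicate 3, without which the call was lost, as it was in 5 of 9 such fits (adjusted p up to 0.151).

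The 3 genes for subunit c, whose mature proteins are identical and form the rotor ring, parted ways. Atp5g2 had 10.59, 10.66, 10.65 and 10.64 in sham KO, 10.90, 10.86, 10.95 and 10.88 at day 1, 11.05, 11.03, 11.32, 11.43 and 10.99 at day 3, and 10.66, 10.78, 10.74 and 10.85 at day 7. In WT it had 10.46, 10.52, 10.63 and 10.84 in sham, 11.10, 10.85, 10.73, 10.92 and 10.83 at day 1, 11.19, 11.14, 11.05 and 11.02 at day 3, and 10.89, 10.83, 10.79 and 10.89 at day 7. In KO all day 1 and day 3 arrays lay above sham, and in WT all day 3 arrays did. It was called higher in 5 of 6 comparisons, by 0.26 and 0.53 in KO at day 1 and day 3 and by 0.28, 0.49 and 0.24 in WT, and not in KO at day 7 (0.12, adjusted p = 0.270). The WT day 7 call was lost in 4 of 8 fits that left out 1 array. At day 3 its signal was 44.0% above sham in KO and 40.4% above in WT (limma adjusted p = 3.11e-06 and 2.48e-05). From day 3 to day 7 it fell again, by 0.41 in KO and 0.25 in WT.

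Atp5g1 had 11.43, 11.64, 11.58 and 11.69 in sham KO, 11.45, 11.51, 11.72 and 11.59 at day 1, 11.09, 11.18, 11.51, 11.18 and 11.12 at day 3, and 10.83, 10.93, 10.91 and 11.04 at day 7. In WT its signals were 11.46, 11.48, 11.56 and 11.58 in sham, 11.47, 11.31, 11.50, 11.40 and 11.50 at day 1, 11.20, 11.18, 11.16 and 11.17 at day 3, and 10.93, 11.03, 10.82 and 11.06 at day 7. Sham and day 1 arrays overlapped, and day 7 arrays were the lowest. It was not called at day 1 and was then lower by 0.37 and 0.66 in KO and by 0.34 and 0.56 in WT at day 3 and day 7 (limma adjusted p at day 7 = 9.94e-08 and 1.30e-06). Its other tested probe set averaged -1.09 over the 6 comparisons, against -0.34 for the one used. Atp5g3, the third of them, was lower at day 3 and day 7, by 0.24 and 0.32 in KO and by 0.20 and 0.26 in WT.

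**Figure D3:**
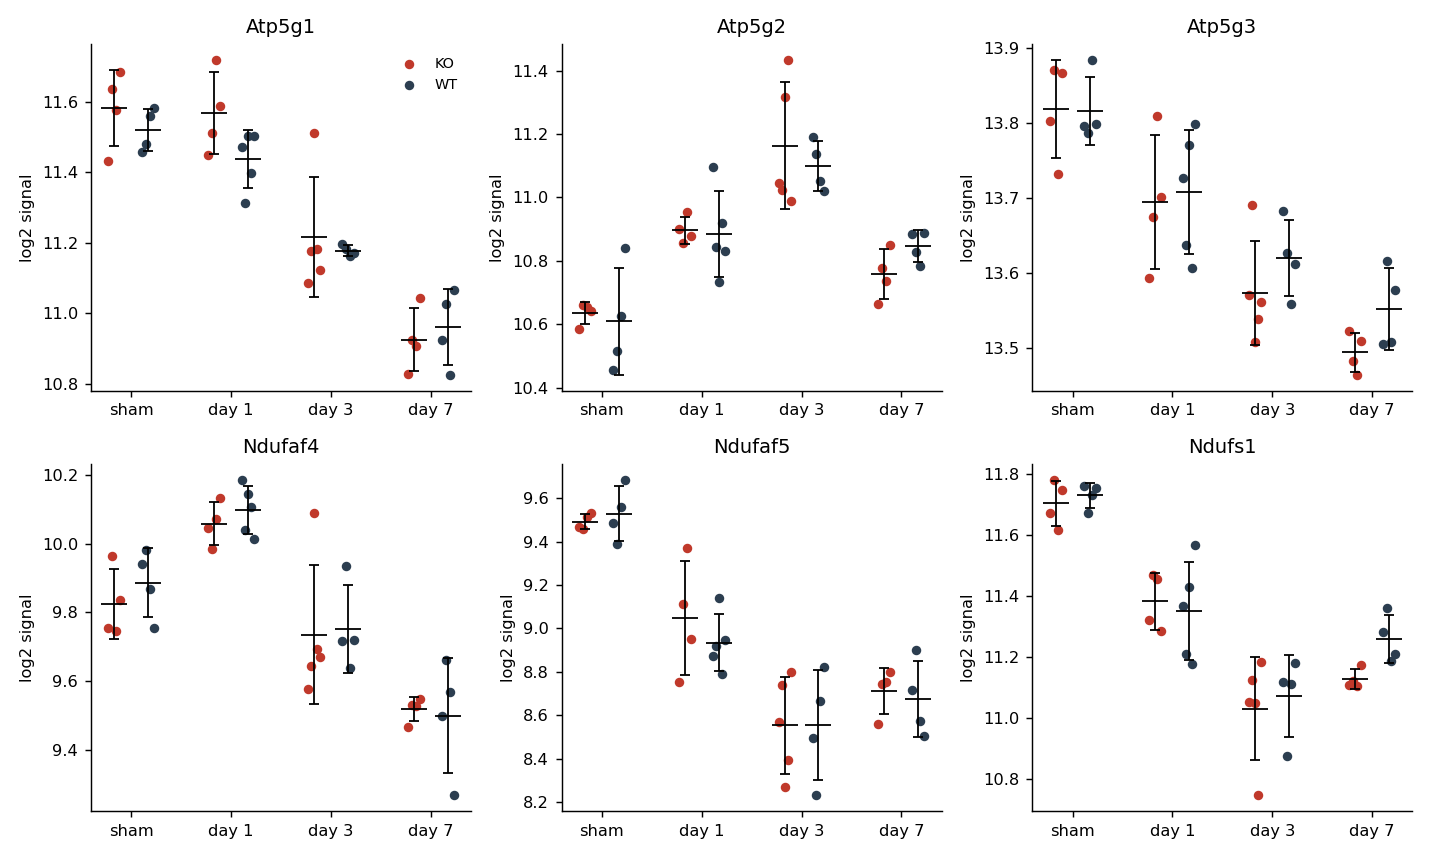
Log2 signal per array of Atp5g1, Atp5g2, Atp5g3, Ndufaf4, Ndufaf5 and Ndufs1 at sham, day 1, day 3 and day 7, KO left of WT, with group mean and SD. Atp5g2 is highest at day 3, while Atp5g1 and Atp5g3 are lowest at day 7, and Ndufaf4 is above sham at day 1 and below it at day 7.

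The tissue isoforms of complex IV behaved unlike the rest of the complex, and 3 of them are the forms of heart and skeletal muscle. Cox8b was at 5.33, 5.98, 6.34 and 8.17 in sham KO, 2.46, 2.84, 2.48 and 2.69 at day 1, 7.24, 2.47, 10.57, 2.45 and 2.42 at day 3, and 2.55, 2.42, 2.47 and 2.48 at day 7. WT arrays had 4.21, 6.22, 3.06 and 6.21 in sham, 2.44, 4.27, 2.45, 2.47 and 2.45 at day 1, 3.28, 2.35, 2.48 and 3.51 at day 3, and 2.48, 3.70, 5.88 and 2.78 at day 7. Most injured arrays sat near the floor, and single arrays were far above it. Cox8b was called lower than in sham in KO at day 1 and day 7 (limma adjusted p = 0.00914 and 0.00638) and at no time in WT. No size is given for these calls, since all KO day 1 and day 7 arrays lay near the floor, at 2.42 to 2.84. At day 3 in KO it was called lower without replicate 3 (adjusted p = 0.00545), the array at 10.57. Values at the floor of the scale have no order.

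Skeletal muscle markers also varied between arrays. Their mean signal was 7.48, 9.22, 9.28 and 10.57 in sham KO, 4.01, 6.31, 3.19 and 3.87 at day 1, 11.08, 5.12, 13.47, 4.55 and 4.33 at day 3, and 3.92, 4.09, 4.70 and 5.11 at day 7. In WT it was 3.46, 8.89, 3.14 and 8.32 in sham, 4.46, 7.92, 3.14, 3.13 and 3.91 at day 1, 8.05, 6.28, 6.88 and 9.11 at day 3, and 5.77, 4.94, 9.68 and 3.90 at day 7. In KO 12 of 12 tested markers were called lower at day 1 and 11 at day 7, and in WT none was called at any time. With that marker mean as a covariate Cox8b was not called in KO at day 1 and day 7 (limma adjusted p = 0.260 and 0.134). In WT it was called lower at the 3 times (limma adjusted p = 0.0207, 1.57e-06 and 0.0143). Most injured arrays lay near the floor for Cox8b, where a linear covariate cannot adjust the signal. No conclusion on Cox8b is drawn from these fits. Cox6a2, at a mean of 4.63, was called in no comparison with sham, and its KO day 3 arrays ranged from 3.58 to 11.12. With the same covariate 43, 65 and 72 of the 85 genes were lower in KO at day 1, day 3 and day 7, and 66, 65 and 70 in WT.

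Cox7a1, the heart and muscle form of subunit 7a, was lower at day 1 in both genotypes, by 1.35 ± 0.41 in KO and 1.20 ± 0.39 in WT (adjusted p = 0.00878 and 0.0109). All day 1 arrays, at 6.03 to 6.58 in KO and 5.86 to 6.61 in WT, lay below all sham arrays, at 7.26 to 8.16 in KO and 7.25 to 7.61 in WT. With the muscle covariate the day 1 difference was -0.56 in KO (adjusted p = 0.202) and -0.97 in WT (adjusted p = 0.00769), and the day 7 differences passed, at 0.89 in KO and 0.87 in WT (adjusted p = 0.0371 and 0.0189).

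Cox6b2, an isoform known from testis, was dim, and changed late. It had 3.66, 3.86, 3.86 and 3.82 in sham KO, 3.29, 2.76, 3.32 and 2.82 at day 1, 3.82, 3.97, 4.17, 5.15 and 4.07 at day 3, and 5.82, 5.89, 5.14 and 5.82 at day 7. In WT it had 3.31, 3.55, 3.86 and 3.33 in sham, 3.32, 3.82, 3.32, 3.32 and 3.42 at day 1, 3.87, 3.57, 4.21 and 3.94 at day 3, and 5.74, 5.58, 4.95 and 5.25 at day 7. The day 7 arrays were all above the sham arrays of their genotype, by 1.87 ± 0.22 log2 in both (limma adjusted p = 7.61e-08 in KO and 6.38e-08 in WT). All sham and day 1 arrays lay under the filter's log2 4, so the size against sham is uncertain. Cox6b2 passed the filter only through arrays of day 3 and day 7, where it was high. The p-values against sham are therefore no independent support for a rise. The KO day 1 call, which is among the 49 counted, compares values that are all under that level. With the muscle covariate the day 7 difference was 1.73 in KO and 1.87 in WT.

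**Figure D4:**
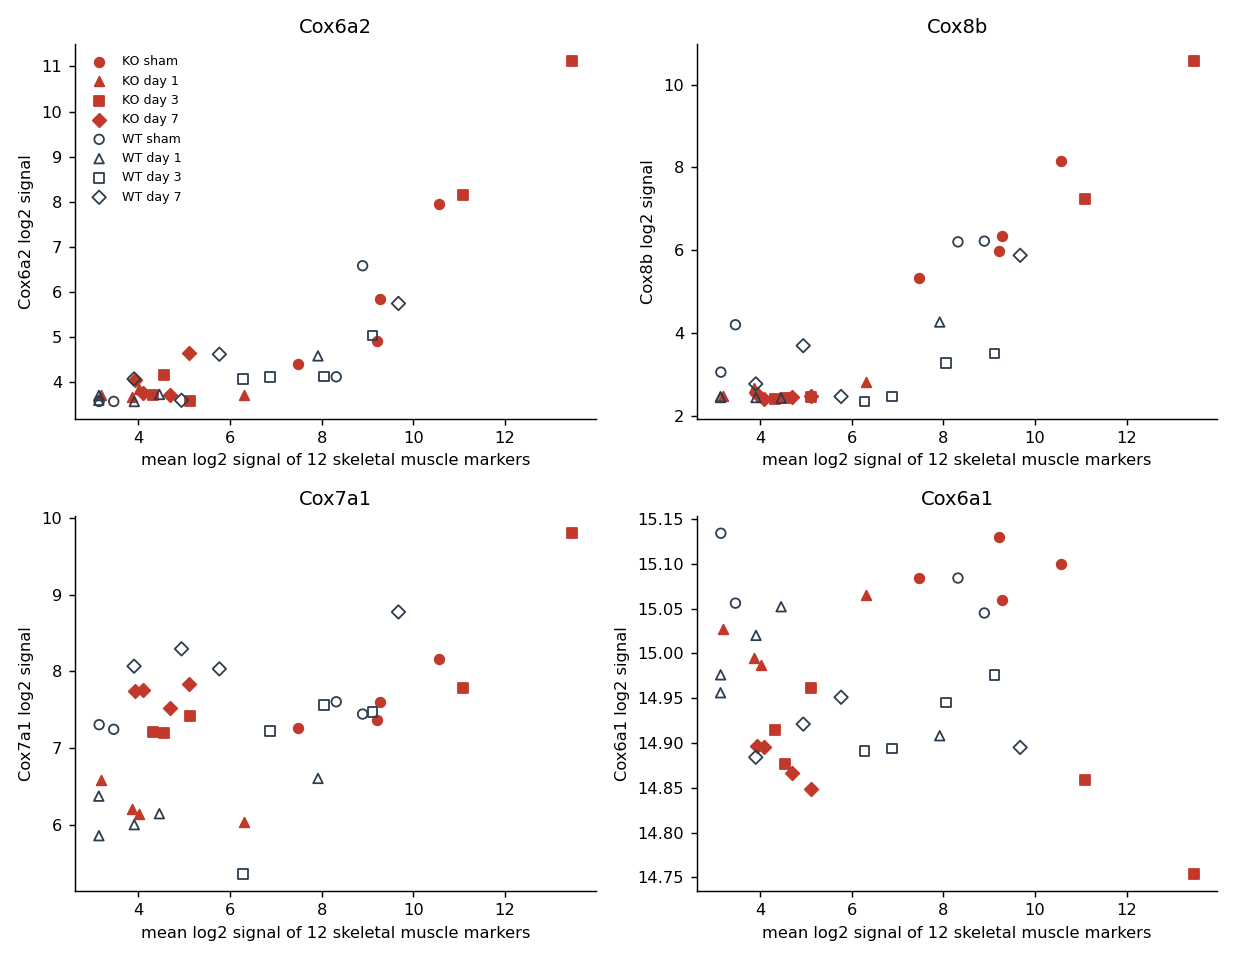
Log2 signal of Cox6a2, Cox8b, Cox7a1 and, as a general subunit, Cox6a1 on each of the 34 arrays against the mean log2 signal of 12 skeletal muscle markers; filled symbols are KO and open ones WT. Day 3 KO replicate 3, at a marker mean of 13.47, holds the highest Cox6a2, Cox8b and Cox7a1 and the lowest Cox6a1.

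The lowest point differed among genes. In KO the lowest of the 4 group means fell at day 3 for 32 genes and at day 7 for 43, and in WT at day 3 for 27 and at day 7 for 40, with 17 lowest at day 1 in WT and 8 in KO. Between day 1 and day 3, 38 genes fell further in KO and 8 rose, against 27.2% and 19.4% of all probe sets. In WT 17 fell and 2 rose, against 15.4% and 11.7% of all probe sets. The WT share called lower, 17 of 85, was close to that of all probe sets. That KO count in either direction was 22 when the KO day 1 and day 3 arrays were fitted alone, and the WT count was 5 when its arrays were fitted alone and 10 without day 1 WT replicate 3.

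All 6 core subunits of complex I were among the genes that fell from day 1 to day 3 in KO, with Ndufs1 at -0.35, and 2 of them, Ndufs1 and Ndufv2, in WT. The KO genes that rose were Sdhc, Sdhd, Cox7a2l, Cox6a2, Cox6b2, Cox7a1, Atp5e and Atp5g2, and the WT ones Sdhc and Cox7a2l. A difference between the genotypes in this step was called for 0 of 85 genes, against 0.452% of all probe sets, and 5 genes had an unadjusted p under 0.05. From day 3 to day 7 few genes moved: 8 fell and 4 rose in KO, against 14.2% and 16.2% of all probe sets, and 4 fell and 4 rose in WT, against 10.5% and 8.64%. Ndufa8 and Atp5g2 fell and Ndufa1, Cox7a2l and Cox6b2 rose in both genotypes. The KO count of 12 was 6 without day 3 KO replicate 3, and the WT count of 8 was between 2 and 6 without any 1 of its arrays.

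Between the genotypes no gene of the machinery was called. KO minus WT gave 0 of 85 in sham, at each of the 3 times after injury and over the mean of the 4 conditions, in limma, where 0.0529%, 0.549%, 0.0366%, 0.0407% and 0.126% of all probe sets were called. At an unadjusted p under 0.05 the counts were 2, 12, 3, 1 and 4. The median SE of a difference was 0.066 log2 in sham and 0.063 at day 1. A difference as large as 0.20 log2, that of Ndufs3 at day 1, was not called (limma adjusted p = 0.233). The 0 counts therefore do not exclude differences of this size in single genes.

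At day 1 the genes leaned one way without passing the test. Of the 81 genes outside the tissue isoforms, 73 had a higher mean in KO than in WT at day 1, with a median of 0.08 log2 and a range of -0.06 to 0.20. In sham 58 were higher in KO, at day 3 49 and at day 7 42, with medians of 0.02, 0.02 and 0.00. Over all probe sets the day 1 median was 0.004 log2, and the share with a higher KO mean was not counted. Class means per array overlapped between the genotypes in every class at day 1. Complex I core was at 12.187 to 12.408 in KO and 12.075 to 12.307 in WT. Complex V was at 12.643 to 12.834 in KO and 12.622 to 12.736 in WT. The genes are not independent of each other, so their number does not measure the strength of the lean. The smallest p at day 1 was that of Ndufs3, a core subunit of complex I, with 11.45, 11.61, 11.70 and 11.63 in KO and 11.36, 11.28, 11.46, 11.24 and 11.64 in WT. WT replicates 3 and 5 lay within or above the lower end of the KO range. KO minus WT was 0.20 ± 0.067 (adjusted p = 0.233), and 0.26 ± 0.062 without WT replicate 5 (adjusted p = 0.0336), the one setting in which a member was called. At day 3 the smallest p was that of Atp5e, at 0.19 ± 0.068 (adjusted p = 0.394).

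**Figure D5:**
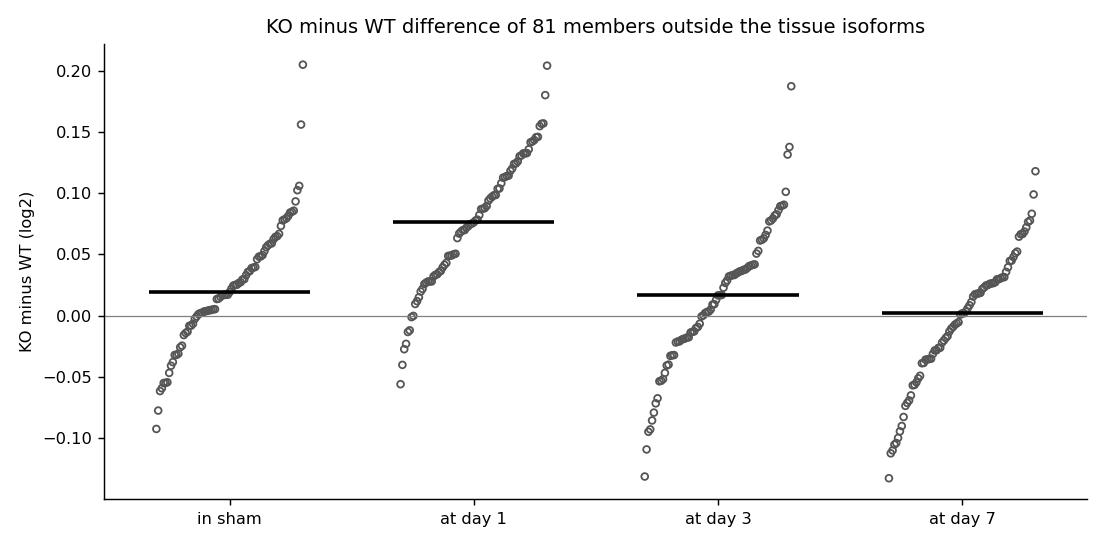
KO minus WT difference (log2) of the 81 genes outside the tissue isoforms in sham cords and after injury (day 1, day 3, day 7), each set sorted by size, with bars at the median. The day 1 points lie mostly above 0, with a median of 0.08, and none of the points passed the adjusted p threshold.

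No difference between genotypes in the injury response was called in limma for any member, 0 of 85 at day 1, day 3 or day 7, where 0.0692%, 0% and 0.00407% of all probe sets were, and 3, 1 and 0 genes had an unadjusted p under 0.05. KO and WT responses of the 85 genes correlated across genes at 0.89, 0.87 and 0.71 (Pearson) and 0.74, 0.87 and 0.87 (Spearman) at day 1, day 3 and day 7. The 85 genes include the 4 tested tissue isoforms, whose differences spanned the widest range and rest in part on values near the floor. Coefficients without these isoforms were not computed. The genes are not independent of each other, and the 2 sets of arrays, KO and WT, share none. At day 1, 83 of 85 differences had the same sign in KO and WT, and at day 3 and day 7 81 did. The KO difference was the more negative one for 22 genes at day 1, 45 at day 3 and 61 at day 7.

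Partner pathways are given beside the shares of all probe sets called lower, which were 23.7%, 36.7% and 27.4% in KO at the 3 times and 28.9%, 35.7% and 31.7% in WT. At day 3, 28.2% were higher in KO and 26.1% in WT. Of 13 tested genes of the TCA cycle, which feeds NADH and succinate to complexes I and II, 6, 9 and 10 were lower in KO at day 1, day 3 and day 7 and 5, 9 and 11 in WT. Sucla2, a succinyl-CoA ligase subunit, was lower by 0.65 at day 3 in KO and 0.55 in WT, while Idh2, the mitochondrial NADP-linked isocitrate dehydrogenase, was higher by 0.74 in KO and 0.75 in WT at day 7. Among 10 genes of pyruvate entry 7, 8 and 7 were lower in KO and 6, 7 and 7 in WT, with Dlat, a subunit of pyruvate dehydrogenase, at -1.20 in KO and -1.25 in WT at day 3. Of 18 glycolysis genes, 4 were higher and 6 lower in KO at day 3, near the shares of all probe sets, and 5 and 8 in WT. Hk2, a hexokinase, was higher by 3.09 log2 in KO and 3.24 in WT at that time.

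Coactivators of mitochondrial biogenesis were lower: Ppargc1a was at -0.72, -1.24 and -0.76 in KO and -0.89, -1.0 and -0.74 in WT, and Ppargc1b at -0.60, -1.18 and -0.91 in KO and -0.76, -1.13 and -0.97 in WT. Of the 17 regulators listed with them, 6 were higher and 7 lower in KO and 3 and 6 in WT at day 3, where the shares of all probe sets were 28.2% higher and 36.7% lower in KO and 26.1% and 35.7% in WT. Of 9 genes for nucleotide and phosphate carriers and uncoupling, 6, 6 and 8 were lower in KO and 4, 5 and 7 in WT, and none was higher. The list held Ckmt2, at -4.01 and -3.98 log2 in KO at day 1 and day 7 and not called in WT. In sham WT the list mean was 11.70, 12.23, 11.67 and 12.11, on arrays with skeletal muscle markers at 3.46, 8.89, 3.14 and 8.32. The part of muscle content in these counts was not tested. The single mitochondrially encoded gene that could be tested, ND5 of complex I, was lower in KO at day 3 and day 7, by 0.23 and 0.28, and in WT at day 7, by 0.25.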

How the data were processed

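The deposited log2 values entered the tests unchanged. The authors computed them with GCRMA, per the submitters' processing notes, version not given. That they are log2 was read from the values, which ran from 2.17 to 15.904. Total RNA was extracted with Trizol and labelled as cRNA by the Affymetrix protocol, per the labels' protocols. Bright signals can be compressed by saturation and dim ones by the floor. Array number limits the precision.

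Arrays were grouped by title. In R 4.3.3, limma 3.58.1 (lmFit, eBayes) estimated 8 group means from the 34 arrays, leaving 26 residual degrees of freedom, with Benjamini-Hochberg adjustment over 24573 probe sets. The fit was tested on simulated data. Alternatives were filters, priors, scalings, array weights, probe set rules, label choices, a muscle covariate, a replicate block and omitted arrays. Values are given for the 2 most negative and the most positive gene of each complex by mean injury difference. Also given are the brightest gene of each complex, the Sdh genes and isoform pairs. The rule also took 2 genes per partner list, those with the largest absolute mean injury difference. Of these, Pdp1, Hk3, Gsr, Timm9, Mrpl52, Cox11, Surf1, Dhodh, Cyc1, Hif1a and Vegfa are not given here. Ndufaf3, Ndufaf4, Ndufs3, Ndufs4, Ndufa2, Ndufa8, Ndufa10, Ndufb7, Ndufv2, Ndufv3, Uqcr10, Cox7c, Atp5e and Ndufa1 were named after their values were seen. Genes and lists were chosen with earlier results of these data known. The day 1 to day 3 genotype contrast, the fit without suffixed probe sets the fit without 2 doubted arrays and the omission of single arrays for every member were added after seeing the data. A further 8 genes fit the symbol rule but lie on probe sets of several genes and were not used. Where p-values rest on replicates, these are biological per the labels.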

Additional observations from a re-analysis of the deposited data

Results flagged for a closer look

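Among 328 groups of 4 or 5 arrays checked for the genes named by the fixed rule and for the class means, 18 had an array whose distance to its nearest neighbour took up most of the group's range, close to the 1 in 20 that chance gives.

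In KO cords, Ndufa7 stood at 11.60 in day 1 replicate 3 (others 11.42 to 11.43), Uqcrc2 at 12.91 in day 3 replicate 4 (others 13.24 to 13.33), Cox6b2 at 5.15 in day 3 replicate 4 (others 3.82 to 4.17) and at 5.14 in day 7 replicate 3 (others 5.82 to 5.89). Day 3 KO replicate 3, the array with the highest skeletal muscle markers, stood apart for Cox7a1 at 9.80 (others 7.20 to 7.78) and for Atp5g1 at 11.51 (others 11.09 to 11.18).

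In WT cords, day 1 replicate 2, one of the 2 arrays with conflicting labels and the day 1 WT array with the highest muscle markers, stood apart for Cox8b at 4.27, Cox6a2 at 4.59, Cox6b2 at 3.82 and the mean of the tissue isoforms at 4.82. Day 3 replicate 2 was low for Uqcrc2 at 13.07, Atp5h at 13.98 and Cox7a1 at 5.36. Day 3 replicate 4 was high for Cox6a2 at 5.04. Sham replicate 4 was high for Sdhc at 10.27 and Cox7a2 at 13.92, sham replicate 3 for Atp5g3 at 13.88, and day 7 replicate 2 for Cox6b1 at 14.16. The part of muscle content in these values was not tested.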

How the results depend on the processing

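Requiring 1.5-fold beside the adjusted p cut the counts to 3, 3 and 5 in KO and 3, 4 and 3 in WT at day 1, day 3 and day 7 against sham, and to 3 and 1 in KO and 0 and 2 in WT for day 3 against day 1 and day 7 against day 3, because most changes were small. Grouping the 2 conflicting arrays by source and time gave 19 for WT at day 1, 0 for WT day 3 against day 1, 1 for WT day 7 against day 3 and 6 for KO day 7 against day 3. Fitting only the arrays compared gave 22 and 2 for the KO steps and 5 and 1 for the WT steps. WT day 3 against day 1 gave 29 with array weights and 11 with the muscle covariate, and WT day 7 against day 3 gave 5 when day 7 WT replicate 4 and the library labelled sham KO replicate 2 were left out. The cause was not tested. Ndufa12 in WT at day 1 turned to 0.12 (adjusted p = 0.615) on a probe set without the _s_at or _x_at suffix. Other filters, priors, scalings and probe set rules kept each count against sham within 1.5 times.

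Leaving out 1 array at a time, counts were 35 to 58, 65 to 69 and 71 to 74 in KO and 58 to 67, 61 to 64 and 66 to 71 in WT at day 1, day 3 and day 7. For the steps they were 34 to 49 and 6 to 17 in KO and 10 to 21 and 2 to 6 in WT, the lowest without day 1 KO replicate 3, day 3 KO replicate 3, day 1 WT replicate 3 and day 7 WT replicate 3. KO against WT at day 1 gave 0 to 1, and all other genotype contrasts 0.

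Same-numbered arrays did not deviate together (mean correlation 0.005 over 113 pairs, and -0.001 over other pairs), and 4 of 34 arrays correlated best with their own number. With the replicate number as a block the counts against sham were 49, 67 and 75 in KO and 67, 64 and 70 in WT, and 48, 14, 13 and 8 for the steps; genotype counts were 0.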

Other observations

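At day 1 the shares of all probe sets called were 20.9% (higher) and 23.7% (lower) in KO and 24% and 28.9% in WT, and at day 7 19.8% and 27.4% in KO and 21.8% and 31.7% in WT. The mitochondrial ribosome's large subunit had 46 tested genes, of which 11 were higher and 2 lower at day 1 in KO and 15 and 4 in WT, while at day 7 2 were higher and 18 lower in both genotypes. Mrpl33 was higher by 0.75, 1.18 and 0.58 over time in KO and by 0.84, 1.11 and 0.47 in WT. Of 20 import genes, 8 were higher and 1 lower in KO at day 1, and 8 and 2 in WT, and at day 7 0 and 10 in KO and 1 and 10 in WT. Tomm70a, a receptor of the outer membrane, was lower at day 3 by 0.97 in KO and 0.87 in WT. Day 3 counts of the other lists, where 28.2% of all probe sets were higher and 36.7% lower in KO and 26.1% and 35.7% in WT, were 3 higher and 3 lower of 11 electron carriers in KO and 2 and 5 in WT, 5 and 5 of 14 cytochrome oxidase assembly factors in KO and 3 and 6 in WT, 2 and 1 of 8 mitochondrial antioxidant genes in both, and 1 and 3 of 10 hypoxia genes in KO and 4 and 4 in WT. Gpx1, a glutathione peroxidase, was higher at day 3 by 2.00 in KO and 1.83 in WT. Mitochondrial creatine kinase Ckmt1 was lower at day 3 by 1.75 in KO and 1.57 in WT.

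For other cell types, counts at day 3 are read against the shares of all probe sets called higher and lower, 28.2% and 36.7% in KO and 26.1% and 35.7% in WT. At that time, 5 of 6 endothelial markers were higher in KO and 6 in WT, 2 of 9 astrocyte markers higher and 4 lower in KO and 2 and 3 in WT, and 1 of 5 Schwann cell and nerve root markers higher in KO and 3 in WT. None of 2 erythrocyte markers was called, and 2 of 4 neutrophil markers were higher in KO and 1 in WT.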
